A study of Mus musculus with 12 samples.

Results

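The 34 genes described here encode the proteins that bring glucose into the cell, break it down to pyruvate, exchange pyruvate with lactate, carry lactate across the cell membrane, and store glucose as glycogen or release it again. They were chosen by gene symbol, all 34 were found among the 17397 genes of the count table, and 33 of them had enough counts to be tested among 12778 tested genes; Aldoc, the brain-type aldolase, did not. RNA was sequenced from hearts of male, wild-type C57BL/6J mice that were 8 weeks old, in 4 groups of 3 libraries. Tumour trained mice were injected through the tail vein with 100000 B16F10 melanoma cells from week 2 and also ran on a treadmill. Tumour mice received the B16F10 cells and did not run. Trained mice ran without tumour cells. Control mice neither ran nor received tumour cells and are labelled as given saline. Training took 5 days per week for 4 weeks, with a first week of adaptation at speeds up to 15 m/min and then sessions of 5 min at 6 m/min followed by 35 min at 12 m/min. B16F10 is a mouse melanoma line that colonises organs through the blood, and the labels name cachexia, the wasting that accompanies cancer, as the condition modelled. The labels do not say whether the 3 libraries of a group came from separate mice or whether mice were pooled, so every p-value measures the spread between these libraries. The labels give heart as the tissue, while the RNA protocol names liver; heart markers were present and liver markers nearly absent, as given below.

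Glucose enters heart muscle through GLUT4, which moves to the cell surface under insulin and contraction, and through GLUT1, which sits there at rest. Most steps of glycolysis have a form made in muscle and a form made in most other cells, so a change in cell makeup changes which form is measured. The adult heart burns mainly fatty acids, takes up lactate, and keeps a glycogen store; growing tumour cells typically take up much glucose and export lactate.

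The libraries held between 8843909 and 13344847 estimated counts. Levels are given as CPM, counts set relative to the library's size after scaling by the trimmed mean of M-values (TMM). Tumour libraries 1 and 2 stood apart from the other 10. The 7 melanocyte and melanoma markers (Sox10, Pmel, Tyrp1, Dct, Mlana, Tyr and Mitf) took 1.18, 0.529 and 0.00767% of the counts of tumour libraries 1, 2 and 3, against 0.00752 to 0.00796% in tumour trained hearts, 0.00458 to 0.00772% in trained hearts and 0.00546 to 0.00647% in control hearts. Tyrp1, an enzyme of pigment synthesis, had 61345, 21693 and 15 counts in the tumour libraries and 0 counts in each of the other 9 libraries. The 12 cardiomyocyte markers took 3.04, 7.46 and 11.8% in the tumour libraries, against 11.7 to 12.3% in tumour trained, 12.1 to 12.8% in trained and 12.0 to 12.5% in control hearts, and none of the 12 was at 0 in any library. The 6 fibroblast markers took 0.150, 0.236 and 0.0918% in the tumour libraries, against 0.0803 to 0.109% in control hearts, and the 6 endothelial markers 0.0426, 0.0962 and 0.111%, against 0.119 to 0.122%. Liver markers stayed at or below 0.000887% in every library. Myh6, the main heart myosin, was the most abundant gene in 11 libraries; in tumour 1 it was Gapdh. Fewer cells of a type and less RNA per cell cannot be told apart in bulk samples. The part of melanoma RNA in the member results was not tested, so the values of the single tumour libraries are given for each called member and for most others.

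In control hearts the members spanned a wide range of levels. Per kilobase of exon, Gapdh, which oxidises glyceraldehyde phosphate, led with 5167 ± 444, followed by Ldhb, the heart form of lactate dehydrogenase, with 1968 ± 18.8, Aldoa, the muscle aldolase, with 1714 ± 102, Eno3, muscle enolase, with 1107 ± 72.4, and Pgam2, muscle phosphoglycerate mutase, with 924 ± 87.6 CPM per kb (mean ± SD, n = 3). The last 4 ranks fell to Pfkfb3 (1.71 ± 0.205), Pfkfb4 (1.42 ± 0.0968), Slc16a3 (0.757 ± 0.182) and Aldoc (0.0675 ± 0.0587 CPM per kb). The order in tumour 1 was different: Eno1, the enolase of most other cells, stood at rank 2 there and at rank 17 in control hearts, Pgk1 at rank 4 against 13, and Pgam1 at rank 9 against 19. Eno3 stood at rank 11 in tumour 1 and at rank 4 in control hearts. Ranks are over the 34 members, on CPM per kb.

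**Figure D1:**
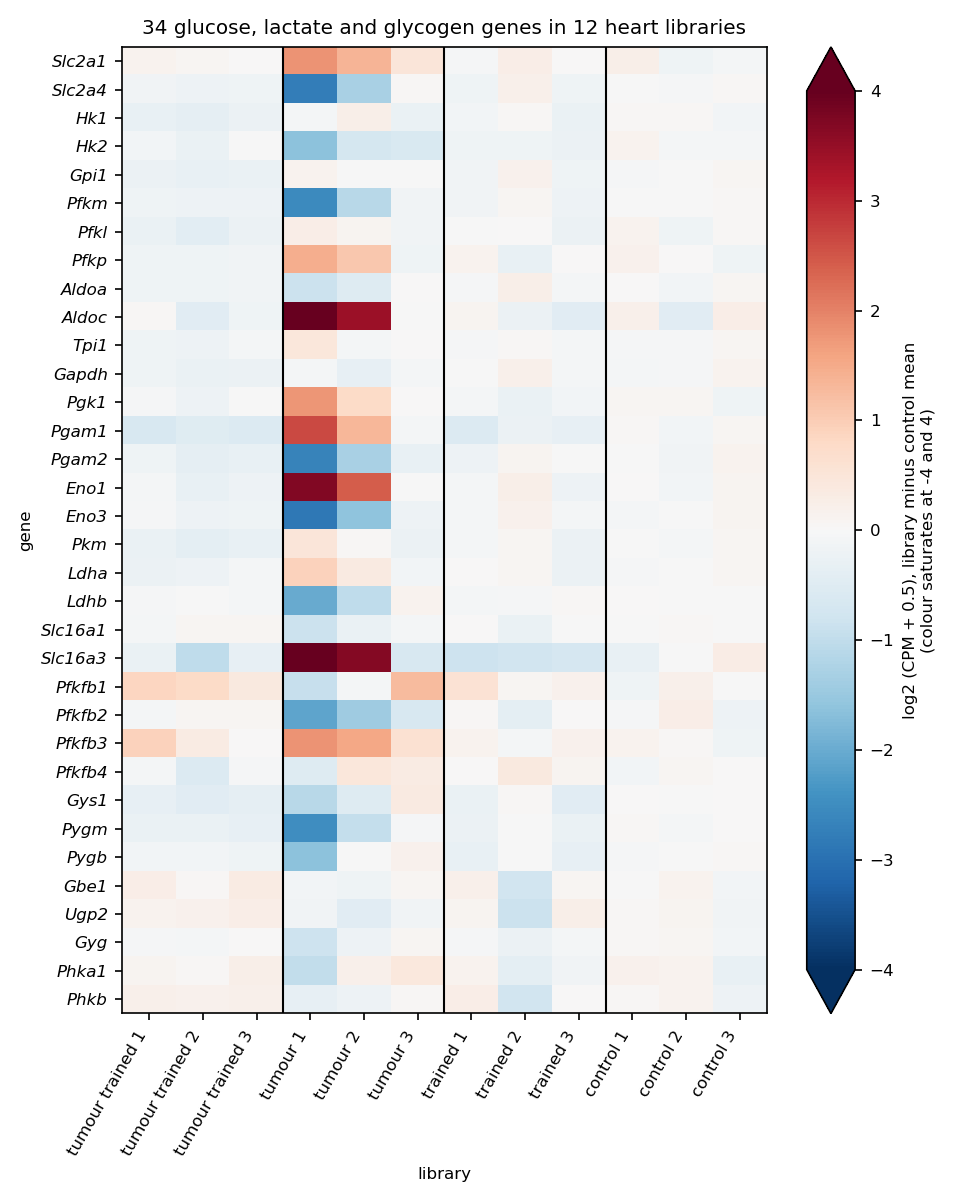
Each cell is one gene in one library, coloured by log2 (CPM + 0.5) minus the mean of the 3 control libraries. The departures lie in tumour 1 and 2, from blue for Slc2a4, Pfkm, Pgam2, Eno3 and Pygm to red for Aldoc, Pgam1, Eno1 and Slc16a3, while tumour 3 and the 9 libraries of other groups stay near white for most genes.

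In tumour against control hearts, 4 members were higher and 2 lower at an edgeR adjusted p below 0.05 in the fit of all 12 libraries. The 4 were Slc2a1, Pfkfb3, Eno1 and Slc16a3, and the 2 were Hk2 and Pfkfb2. Among all 12778 genes tested, 5.33% were higher, 1.46% lower and 6.79% either, against 18.2% of the 33 members. In tumour trained against tumour hearts, 1 member, Pfkfb2, was higher and 4 were lower, namely Slc2a1, Pgam1, Eno1 and Slc16a3; 1.79% of all genes were higher, 7.25% lower and 9.05% either, against 15.2% of members. Judged by overlap alone, 2 members lay above and 6 below all control libraries in the 3 tumour libraries, against 14.2% and 11.8% of all genes. In the 3 tumour trained libraries 5 lay above and 8 below all tumour libraries, against 13.5% and 14.5% of all genes. Both comparisons use the same 3 tumour libraries, so their calls are not independent. The calls rested on few libraries: leaving out 1 library at a time, no member was called in 10 of 12 fits of tumour against control, 1 without tumour 1, where 1.55% of all genes were called, and 21 (9 higher, 12 lower) without tumour 3, where 53.0% of all genes were called. For tumour trained against tumour hearts, no member was called in 10 of the 12 fits, 6 without trained 2, where 9.34% were, and 22 (11 higher, 11 lower) without tumour 3, where 49.8% of all genes were called. The fits without tumour 3 or without trained 2 tested 34 members, because Aldoc then passed the filter on low counts. Aldoc is among the 21 and among the 22 called without tumour 3, with its counts almost all in tumour 1 and 2. With both tumour 1 and tumour 2 left out, only Pfkfb1 was called in tumour against control, where 1.40% of genes were called, and no member in tumour trained against tumour, where 0.716% were; in that fit tumour 3 alone stands for the group and is assumed to vary like the others. DESeq2 called 10 members in each comparison, where it called 17.8% of all genes in tumour against control and 18.6% in tumour trained against tumour hearts.

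The promoters of the 4 genes that were lower in tumour trained than in tumour hearts are shown because these genes share a direction in that comparison. Each window runs from 250 bases before to 50 bases after a RefSeq transcription start on GRCm38.p6, all 4 lie on the plus strand, and capitals mark ACGTG, the core of the site bound by hypoxia-inducible factors. The windows lie at chr4:119108495-119108794 for Slc2a1, chr19:41911621-41911920 for Pgam1, chr4:150236458-150236757 for Eno1 and chr11:120948817-120949116 for Slc16a3.
Slc2a1: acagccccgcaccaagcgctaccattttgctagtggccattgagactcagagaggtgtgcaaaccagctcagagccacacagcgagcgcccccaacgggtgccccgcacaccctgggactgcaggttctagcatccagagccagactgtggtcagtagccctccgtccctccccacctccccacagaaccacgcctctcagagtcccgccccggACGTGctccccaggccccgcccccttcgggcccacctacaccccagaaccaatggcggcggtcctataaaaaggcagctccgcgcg
Pgam1: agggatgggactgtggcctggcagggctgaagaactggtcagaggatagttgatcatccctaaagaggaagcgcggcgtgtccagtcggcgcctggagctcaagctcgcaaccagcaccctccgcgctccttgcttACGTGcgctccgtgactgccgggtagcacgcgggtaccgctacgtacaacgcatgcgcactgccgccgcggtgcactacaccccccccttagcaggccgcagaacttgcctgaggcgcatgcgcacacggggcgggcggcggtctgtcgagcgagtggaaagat
Eno1: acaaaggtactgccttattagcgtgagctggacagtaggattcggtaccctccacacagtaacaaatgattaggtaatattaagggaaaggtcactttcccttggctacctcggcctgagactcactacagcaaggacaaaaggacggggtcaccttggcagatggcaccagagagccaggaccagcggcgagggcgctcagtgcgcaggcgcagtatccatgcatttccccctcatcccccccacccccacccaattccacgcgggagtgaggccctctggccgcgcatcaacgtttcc
Slc16a3: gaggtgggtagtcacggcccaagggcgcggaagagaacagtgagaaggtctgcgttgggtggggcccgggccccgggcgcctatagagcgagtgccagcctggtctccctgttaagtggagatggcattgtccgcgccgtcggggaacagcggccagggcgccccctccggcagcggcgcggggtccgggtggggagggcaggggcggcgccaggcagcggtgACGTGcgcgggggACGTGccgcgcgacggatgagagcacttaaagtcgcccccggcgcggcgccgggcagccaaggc
The Slc2a1 and Pgam1 windows hold 1 such core each, at positions -36 and -114 from the start, and the Slc16a3 window holds 2, at -27 and -14. None of these letters stand in the Eno1 window, which is 1 of 3 listed for that gene. ACGTG, read on both strands with overlapping matches counted once, was found in 15 of the 33 member windows (45.5%), against 19.6% of 32851 RefSeq windows of the same length. The letters CTA and TAG parted by any 4 bases, a core of the site bound by MEF2 muscle factors, were found in 2 of 33 (6.06%), against 3.69%; those 2 belong to Ldhb and Phka1. Slc2a4 has no window listed. Each of the other members gave 1 window, whereas the RefSeq shares count every listed window, several for some genes, so the 2 shares are not strictly alike. A match is a description of the letters only.

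Among the glucose transporters, Slc2a1, which encodes GLUT1, was higher in tumour hearts, while Slc2a4, which encodes GLUT4, was not called. Slc2a1 had 27.5, 26.0 and 25.0 CPM in tumour trained hearts, 87.7, 63.8 and 34.8 CPM in tumour hearts, 24.0, 29.7 and 25.2 CPM in trained hearts, and 29.2, 22.2 and 23.6 CPM in control hearts. All 3 tumour libraries lay above every one of the other 9, which held for 5.21% of all genes. The group means were 62.1 ± 26.5 CPM in tumour hearts, against 25.0 ± 3.72 CPM in control hearts (SD, n = 3 each), and the log2 fold change was 1.32 ± 0.27 SE (adjusted p = 0.039 by edgeR). Slc2a1 was lower in tumour trained than in tumour hearts, with a log2 fold change of -1.25 ± 0.27 SE (adjusted p = 0.0357 by edgeR). Without tumour 1 and 2 the log2 fold change of tumour over control was 0.49 ± 0.18 SE (adjusted p = 0.263 by edgeR). Slc2a4 had 609.5, 585 and 603 CPM in tumour trained hearts, 99.1, 273 and 699.5 CPM in tumour hearts, 596, 772 and 598 CPM in trained hearts, and 669.9, 659 and 697 CPM in control hearts. Tumour 3 lay within the range of the other groups while tumour 1 and 2 lay below all of them, and neither comparison was called (tumour over control, -0.92 ± 0.49 SE, adjusted p = 0.196 by edgeR).

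Glucose is then trapped as glucose 6-phosphate by hexokinase, made in heart as Hk2, which insulin induces, and as the widely expressed Hk1. Hk2 had 379, 341 and 403 CPM in tumour trained hearts, 132, 249.7 and 268 CPM in tumour hearts, 363, 363 and 351 CPM in trained hearts, and 458, 387 and 392 CPM in control hearts. Every tumour library lay below all 9 others, which held for 4.30% of all genes, and tumour 3, with few melanoma counts, shared this. Mean levels were 217 ± 73.9 CPM in tumour hearts, against 412 ± 39.5 CPM in control hearts (SD, n = 3 each). The log2 fold change of tumour over control was -0.93 ± 0.24 SE (adjusted p = 0.0453 by edgeR); with tumour 3 as the only tumour library it was -0.61 ± 0.14 SE (adjusted p = 0.0583 by edgeR), and with libraries scaled to cardiomyocyte genes its sign turned, to 0.22 (edgeR adjusted p = 0.481). Tumour trained over tumour hearts gave 0.79 ± 0.24 SE (adjusted p = 0.0558 by edgeR), which did not pass. Hk1 ranged from 186 to 249 CPM in the 9 libraries of other groups and was at 226, 283 and 200.1 CPM in the tumour libraries, with a log2 fold change of tumour over control of -0.016 ± 0.16 SE (adjusted p = 0.947 by edgeR). Gpi1, which turns glucose 6-phosphate into fructose 6-phosphate, was at 1055, 956 and 945 CPM in tumour hearts, against 922, 939 and 1014 CPM in control hearts and was not called.

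Phosphofructokinase, the committed step of glycolysis, is made as Pfkm in muscle, Pfkl in liver and Pfkp in platelets and many growing cells. Pfkm had 1201, 1170.4 and 1182 CPM in tumour trained hearts, 235, 638 and 1228 CPM in tumour hearts, 1246, 1434 and 1191 CPM in trained hearts, and 1338, 1341 and 1408 CPM in control hearts. Tumour 1 and 2 were far below all other libraries and tumour 3 was below the 3 control libraries but among the trained ones; the test did not pass (-0.96 ± 0.43 SE, adjusted p = 0.138 by edgeR). Pfkp had 61.9, 61.3 and 62.8 CPM in tumour trained hearts, 190.3, 145 and 60.9 CPM in tumour hearts, 76.3, 56.0 and 70.3 CPM in trained hearts, and 77.3, 69.5 and 61.6 CPM in control hearts. It was above all other libraries in tumour 1 and 2 and at the low end in tumour 3. Its log2 fold change was 0.93 ± 0.31 SE (adjusted p = 0.0777 by edgeR) in tumour over control and -1.09 ± 0.31 SE (adjusted p = 0.0515 by edgeR) in tumour trained over tumour hearts, just outside the threshold. Pfkl, which was not called, had 133, 118 and 134 CPM in tumour trained hearts, 189.5, 171 and 145 CPM in tumour, 155, 162 and 134 CPM in trained and 174, 140.1 and 163 CPM in control hearts, and a log2 fold change of tumour trained over tumour of -0.39 ± 0.15 SE (adjusted p = 0.111 by edgeR).

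The 4 Pfkfb genes encode the enzymes that make and remove fructose 2,6-bisphosphate, the strongest activator of phosphofructokinase, and they did not move together. Pfkfb2, the heart form, which insulin and adrenaline activate, had 129, 144 and 146 CPM in tumour trained hearts, 31.3, 50.6 and 86.9 CPM in tumour hearts, 141, 103 and 139 CPM in trained hearts, and 133, 164 and 118 CPM in control hearts. All 3 tumour libraries were below all 9 others. The log2 fold change was -1.30 ± 0.30 SE (adjusted p = 0.0405 by edgeR) in tumour over control and 1.32 ± 0.30 SE (adjusted p = 0.0357 by edgeR) in tumour trained over tumour hearts; without tumour 1 and 2 the values were -0.66 ± 0.21 SE (adjusted p = 0.188 by edgeR) and 0.67 ± 0.21 SE (adjusted p = 0.191 by edgeR). Pfkfb3, the form with the strongest kinase activity, induced by hypoxia and growth signals, had 18.3, 12.0 and 9.47 CPM in tumour trained hearts, 33.98, 28.3 and 14.6 CPM in tumour hearts, 10.4, 8.76 and 10.6 CPM in trained hearts, and 10.4, 9.64 and 8.20 CPM in control hearts. Tumour 1 and 2 lay above all others, and tumour 3 lay above the control and trained libraries but below tumour trained 1. Its log2 fold change was 1.44 ± 0.31 SE (adjusted p = 0.039 by edgeR) in tumour over control. In tumour trained over tumour hearts it was -0.96 ± 0.31 SE (adjusted p = 0.0685 by edgeR). Across the alternative fits described below, the Pfkfb3 values ran from 0.638 to 3.12 and from -2.57 to -0.156. Pfkfb1, known as the liver and muscle form, had 19.8, 18.4 and 14.1 CPM in tumour trained hearts, 5.38, 10.2 and 26.3 CPM in tumour hearts, 16.1, 11.3 and 12.0 CPM in trained hearts, and 9.38, 12.5 and 10.5 CPM in control hearts. Here tumour 3 was the highest of the 12 libraries and tumour 1 the lowest, so the 3 tumour libraries straddled the rest. The log2 fold change of tumour over control was 0.36 ± 0.44 SE (adjusted p = 0.556 by edgeR) over all 3 tumour libraries and 1.30 ± 0.24 SE (adjusted p = 0.0229 by edgeR) with tumour 3 alone, the only member called higher in that fit, where 0.870% of genes were. It turned to -0.52 without tumour 3. Pfkfb4, the testis form, was scarce in every library (3.24 to 6.96 CPM) and was not called.

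**Figure D2:**
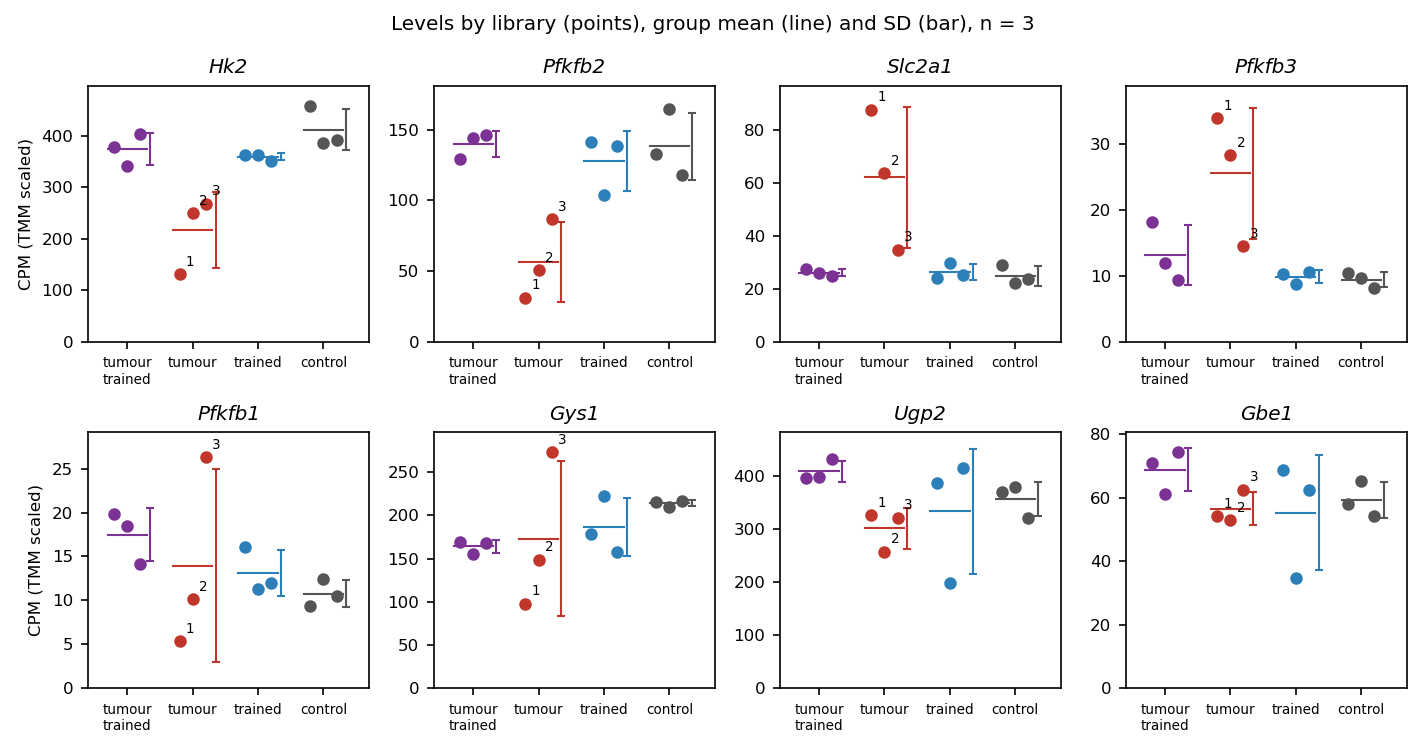
Points are the CPM of each library, lines the group means and bars the SD of 3 libraries; numbers mark the tumour libraries. Hk2 and Pfkfb2 of all 3 tumour libraries sit below the other groups and Slc2a1 above, while for Pfkfb1 and Gys1 tumour 3 is highest and tumour 1 lowest.

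In the later steps of glycolysis the forms made outside muscle were higher in tumour 1 and 2 and the muscle forms lower. Eno1 had 200.3, 171 and 183 CPM in tumour trained hearts, 2764, 1137 and 209 CPM in tumour hearts, 201, 247 and 184 CPM in trained hearts, and 214, 195 and 227 CPM in control hearts. In tumour 1 it was more than 10 times every library outside the tumour group, and in tumour 3 it lay among them. The log2 fold change was 2.69 ± 0.64 SE (adjusted p = 0.0417 by edgeR) in tumour over control and -2.89 ± 0.64 SE (adjusted p = 0.0357 by edgeR) in tumour trained over tumour hearts, against -0.012 ± 0.17 SE (adjusted p = 0.992 by edgeR) for tumour over control without tumour 1 and 2. Eno3 had 1659, 1490.4 and 1534 CPM in tumour trained hearts, 237, 571 and 1493 CPM in tumour hearts, 1630.5, 1952 and 1639.9 CPM in trained hearts, and 1625, 1725 and 1851 CPM in control hearts, and its log2 fold change of -1.18 ± 0.48 SE (adjusted p = 0.116 by edgeR) did not pass. Pgam1, the mutase of most tissues, had 76.9, 84.5 and 82.1 CPM in tumour trained hearts, 744, 299.99 and 113 CPM in tumour hearts, 81.0, 101 and 93.8 CPM in trained hearts, and 122, 111 and 124 CPM in control hearts. Its log2 fold change was -2.25 ± 0.49 SE (adjusted p = 0.0357 by edgeR) in tumour trained over tumour hearts and 1.70 ± 0.48 SE (adjusted p = 0.0546 by edgeR) in tumour over control, and only the first passed. In the same libraries Pgam2 had 122, 314 and 627 CPM in tumour hearts and 768, 707 and 853 CPM in control hearts (-1.13 ± 0.42 SE, adjusted p = 0.0964 by edgeR). Pgk1, which makes the first ATP of the pathway, had 510.4, 462 and 528 CPM in tumour trained, 1806, 896 and 542 CPM in tumour, 502, 443 and 494 CPM in trained and 562, 566 and 473 CPM in control hearts. The order was again tumour 1, tumour 2 and then the rest, and its log2 fold change was 1.02 ± 0.34 SE (adjusted p = 0.0767 by edgeR) in tumour over control and -1.11 ± 0.34 SE (adjusted p = 0.0597 by edgeR) in tumour trained over tumour hearts.

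The remaining enzymes of the chain were called in neither comparison. Aldoa was at 2421, 3102 and 4416 CPM in tumour hearts, against 4453, 4111 and 4626 CPM in control hearts, lowest in tumour 1. Gapdh, often used as a reference gene, ranged from 6352 to 8960.1 CPM in the 9 libraries outside the tumour group and was at 7351, 6156 and 7347 CPM in the tumour libraries. Tpi1, which interconverts the triose phosphates, reached 1178 CPM in tumour 1, against 743 to 911 CPM over those 9 libraries. Pkm, the pyruvate kinase of muscle and of growing cells, was at 2599.7, 1913 and 1602 CPM in tumour hearts and 1848, 1789.8 and 1979.8 CPM in control hearts; its M1 and M2 transcripts share most exons and are not separated in gene counts. Aldoc, left out of the test, had 262, 99 and 2 counts in tumour 1, 2 and 3 and at most 3 counts in every other library. Without the filter on low counts its log2 fold change was 5.15 ± 1.23 (SE) in tumour over control, with an edgeR adjusted p of 0.0351, a value that depends on the prior count because the control libraries held at most 3 counts.

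Lactate is made and used by lactate dehydrogenase and crosses the membrane through monocarboxylate transporters. Slc16a3, which encodes the lactate exporter MCT4, had 2.64, 1.40 and 2.53 CPM in tumour trained hearts, 136, 48.5 and 1.94 CPM in tumour hearts, 1.65, 1.73 and 1.92 CPM in trained hearts, and 2.59, 3.31 and 4.21 CPM in control hearts. In tumour 1 and 2 it was more than 10 times every library outside the group, and in tumour 3 it was below the 3 control libraries. Its log2 fold change was 4.21 ± 0.99 SE (adjusted p = 0.0417 by edgeR) in tumour over control and -4.82 ± 1.04 SE (adjusted p = 0.0357 by edgeR) in tumour trained over tumour hearts; without tumour 1 and 2 the tumour over control value was -0.78 ± 0.41 SE (adjusted p = 0.486 by edgeR), with the sign turned. Slc16a1, which encodes the importer MCT1, was at 159, 237 and 270.2 CPM in tumour hearts, against 283, 296 and 284 CPM in control hearts, all 3 tumour libraries below the control ones, without a call (-0.38 ± 0.19 SE, adjusted p = 0.182 by edgeR). Ldha, the form that favours lactate production, had 834, 845 and 928 CPM in tumour trained, 1837, 1260.2 and 904 CPM in tumour, 991, 1032 and 823 CPM in trained and 937, 957 and 1028 CPM in control hearts. Ldhb, the heart form, had 2478, 2523 and 2420.3 CPM in tumour trained hearts, 636, 1272 and 2837 CPM in tumour hearts, 2454, 2461 and 2632 CPM in trained hearts, and 2594, 2549 and 2554 CPM in control hearts. Tumour 1 and 2 held less Ldhb than all others, and tumour 3 held the most of the 12 libraries. Neither gene was called, with log2 fold changes of tumour over control of 0.45 ± 0.25 SE (adjusted p = 0.2 by edgeR) for Ldha and -0.70 ± 0.41 SE (adjusted p = 0.229 by edgeR) for Ldhb.

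None of the 8 glycogen genes was called in the 12-library fit, where 6.79% of all genes were called in tumour against control, 9.05% in tumour trained against tumour, and at most 0.0235% in the other 4 comparisons, so that no call among 8 genes says nothing particular about them. Gys1, the muscle glycogen synthase, had 169, 156 and 168 CPM in tumour trained hearts, 97.9, 149 and 273 CPM in tumour hearts, 178, 223 and 157 CPM in trained hearts, and 215, 209.9 and 217 CPM in control hearts. Tumour 3 was the highest of all 12 libraries and tumour 1 the lowest. The log2 fold change of tumour over control was -0.31 ± 0.29 SE (adjusted p = 0.45 by edgeR) with all libraries, and that of tumour trained over tumour was -0.75 ± 0.16 SE (adjusted p = 0.0672 by edgeR) with tumour 3 alone. Pygm, the muscle glycogen phosphorylase that releases glucose phosphate, had 1775, 1761 and 1698 CPM in tumour trained hearts, 378, 1088 and 2048 CPM in tumour hearts, 1811, 2111 and 1750.4 CPM in trained hearts, and 2189, 2010.3 and 2161 CPM in control hearts. It was low in tumour 1 and 2 and within the range of the other groups in tumour 3. Pygb, the brain phosphorylase, which heart also makes, had 416, 1275 and 1452 CPM in tumour hearts, against 1249, 1288 and 1338 CPM in control hearts; only tumour 1 was low. The self-glucosylating primer Gyg was at 129, 198 and 242 CPM in tumour hearts, against 237, 240.4 and 212 CPM in control hearts. Phka1, the regulatory alpha subunit of phosphorylase kinase in muscle, was at 26.7, 61.0 and 70.8 CPM in tumour hearts, against 59.9, 58.6 and 42.8 CPM in control hearts. The other 3 stood apart in a trained library instead. Ugp2, which makes the UDP-glucose that glycogen synthase uses, was at 197 CPM in trained 2, against 386 and 414 CPM in trained 1 and 3. In the same library the branching enzyme Gbe1 was at 34.7 CPM, against 68.6 and 62.5 CPM, and Phkb, the beta subunit of phosphorylase kinase, at 38.2 CPM, against 78.6 and 66.4 CPM. Each of these 3 values was the lowest of the 12 libraries for its gene. Trained 2 also departed from its group over all genes. Comparing the counts of 2 libraries, the chi-square per gene was 29.8 and 32.1 for trained 2 against trained 1 and 3. Between trained 1 and 3 it was 4.27. Smooth muscle and pericyte markers took 0.0557% in trained 2, against 0.103 and 0.105% in trained 1 and 3. The part of this departure in the 3 values was not tested.

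**Figure D3:**
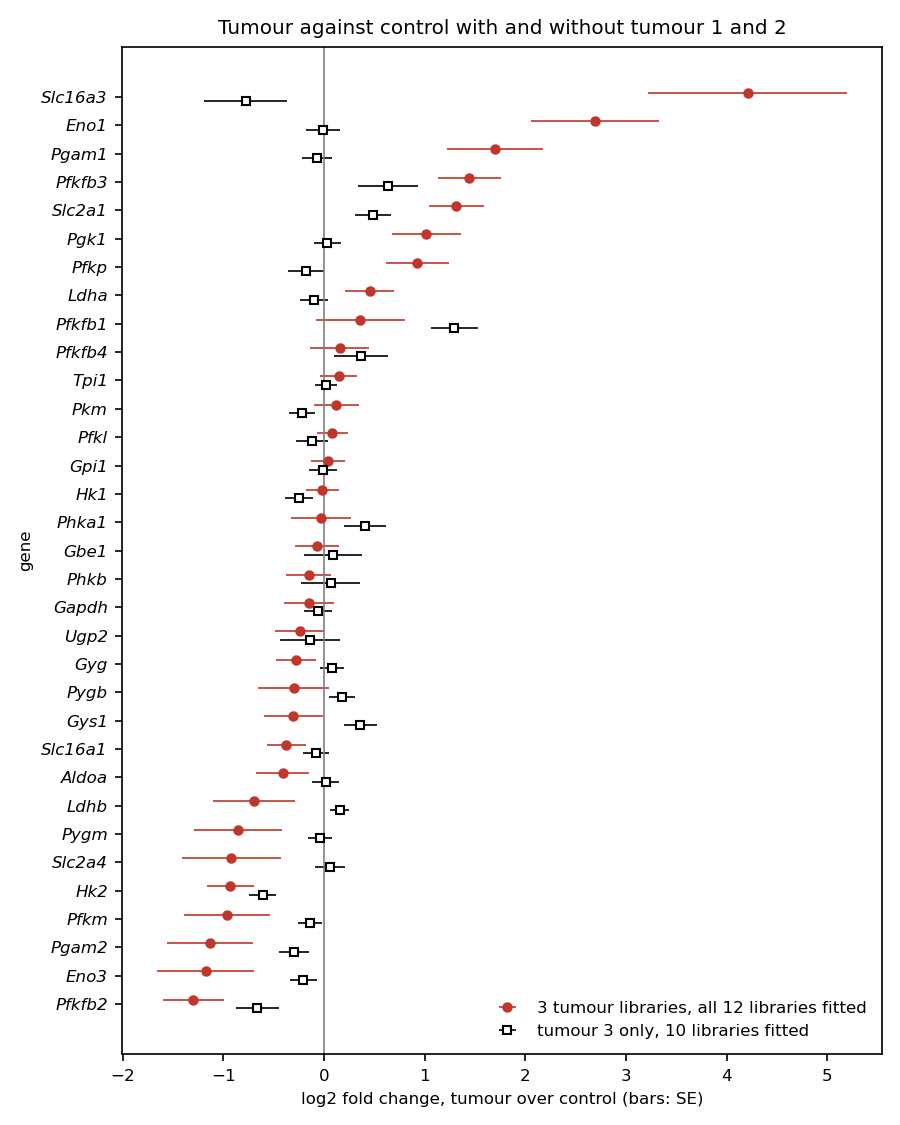
Each gene has its log2 fold change of tumour over control with its SE, from all 12 libraries (filled circles) and from 10 libraries with tumour 3 as the only tumour library (open squares). Slc16a3, Eno1 and Pgam1 fall to 0 or below in the second fit, Hk2 and Pfkfb2 stay below 0, and Pfkfb1 moves to 1.30.

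Because both members of an isoform pair come from 1 library, their ratio does not depend on how libraries are scaled. The share of the muscle or heart form, on CPM per kb, was lowest in tumour 1 in 8 of the 9 pairs drawn and next lowest in tumour 2. Eno3 made up 12.2, 44.96 and 92.1% of enolase in tumour 1, 2 and 3, against 92.5 to 93.6% in the 9 libraries of other groups. For Pgam2 of both mutases the shares were 25.7, 68.8 and 92.2%, against 93.0 to 94.97%. GLUT4 transcripts made up 56.8, 83.2 and 95.9% of the Slc2a4 and Slc2a1 pair, against 96.3 to 97.2%. In these 3 pairs tumour 3 lay just below the lowest of the other 9 libraries. Pfkm made up 63.8, 86.3 and 96.7% of the Pfkm and Pfkp pair, against 95.9 to 97.3%, and 60.6, 82.3 and 91.3% of the Pfkm and Pfkl pair, against 90.6 to 92.5%. The Hk2 share of hexokinase was 33.6, 43.3 and 53.7%, against 56.2 to 63.0%, so that all 3 tumour libraries lay below the rest. Ldhb made up 33.5, 59.5 and 82.0% of the lactate dehydrogenase pair, against 77.6 to 82.3%, with tumour 3 inside that range. For Pygm of both phosphorylases the shares were 55.2, 53.7 and 65.7%, against 66.7 to 70.4%, the pair in which tumour 2 was lower than tumour 1. MCT1 transcripts made up 53.9, 83.1 and 99.3%, against 98.5 to 99.5%. The summed level of this transporter pair was 66.5, 64.4 and 61.5 CPM per kb in the tumour libraries, within the 54.2 to 69.8 CPM per kb of the others. Summed enolase was 1237, 811 and 1036 CPM per kb, against 1019 to 1343 CPM per kb, whereas summed phosphorylase was 238, 705 and 1084 CPM per kb, against 874 to 1094 CPM per kb. The melanocyte marker share was highest in tumour 1 and next in tumour 2, the libraries with the lowest shares of muscle forms. The part of melanoma RNA in these isoform shares was not tested.

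**Figure D4:**
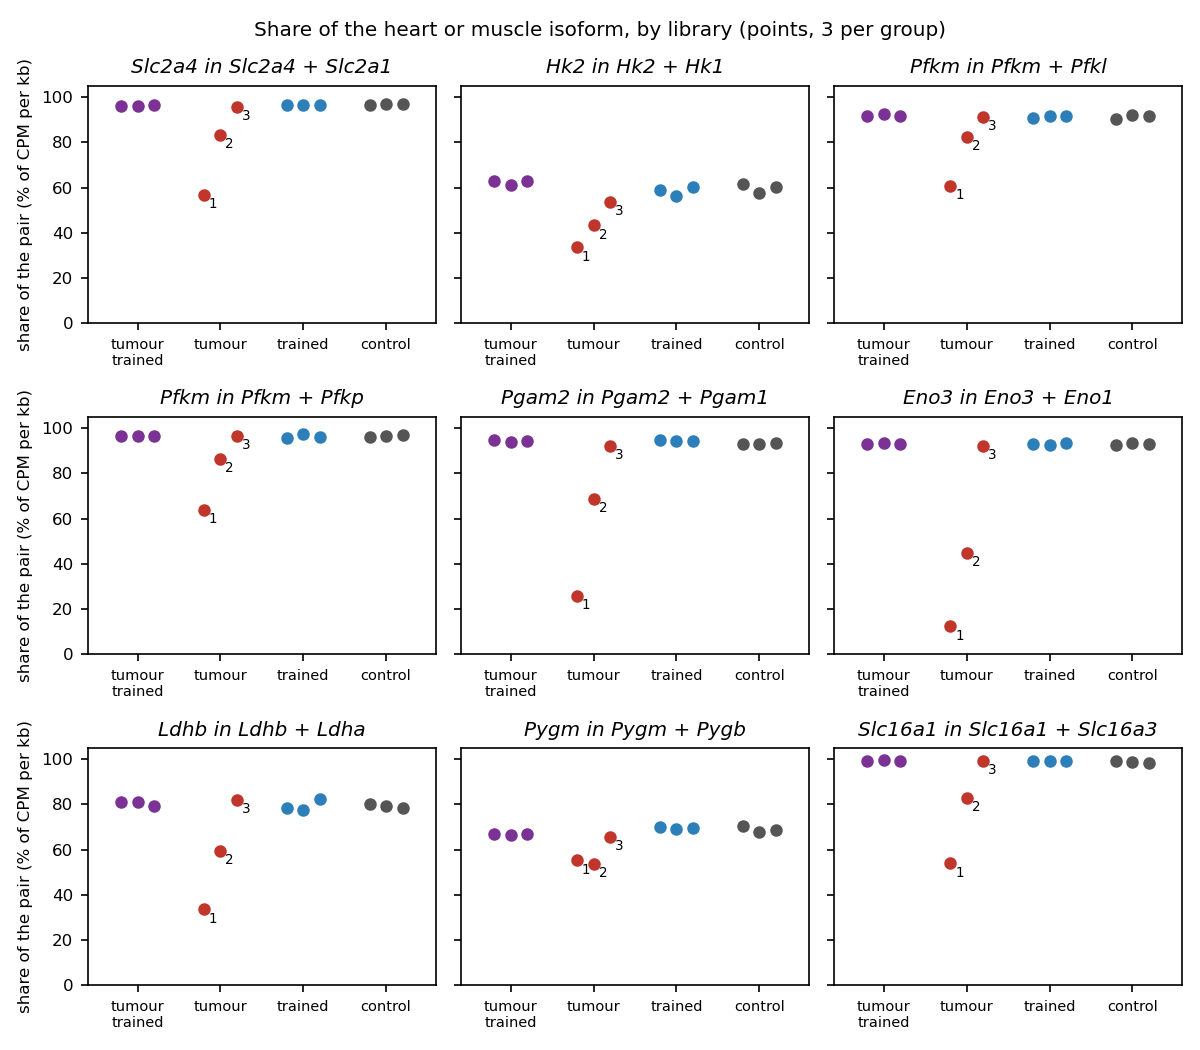
Each panel gives the share of the muscle or heart form in its pair, as a percent of CPM per kb, with 1 point per library and numbers on the tumour libraries. Tumour 1 has the lowest share in 8 of the 9 panels, down to 12.2% for Eno3, and tumour 3 lies close to the other groups except for Hk2.

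Set against the summed counts of the 12 cardiomyocyte markers, some muscle and heart forms of tumour 1 lay near the control mean and others lay above it. Values in this paragraph are log2 ratios of a gene to those markers, minus the control mean, in tumour 1, 2 and 3. They were -0.14, -0.17 and -0.11 for Pfkm, -0.091, -0.038 and -0.0074 for Pygm and -0.37, -0.38 and 0.092 for Slc2a4. For Pgam2 they were -0.27, -0.38 and -0.26, and for Eno3 -0.47, -0.68 and -0.17, the farthest of these from 0. Aldoa had 1.54, 0.42 and 0.049, Gys1 1.27, 0.40 and 0.39, Phka1 1.41, 1.12 and 0.45 and Slc16a1 1.54, 0.64 and -0.049, so that in tumour 1 these 4 lay above the control mean, while on the TMM scale they lay below it. Eno1 and Slc16a3 were higher still in tumour 1 and 2, with 6.10, 3.35 and 0.022 for Eno1 and 7.74, 4.78 and -0.71 for Slc16a3. Hk2 had 0.76, 0.20 and -0.58, with tumour 3 alone below the control mean. Pfkfb1 had 1.41, 0.85 and 1.33, above the control mean in each tumour library. Scaling to cardiomyocyte genes moves the median log2 fold change of all genes to 1.54 in tumour over control, and that of the members to 1.24, against 0.11 and -0.066 under TMM; 25 members were then higher and 1 lower, while 70.8% of all genes were higher and 0.438% lower.

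**Figure D5:**
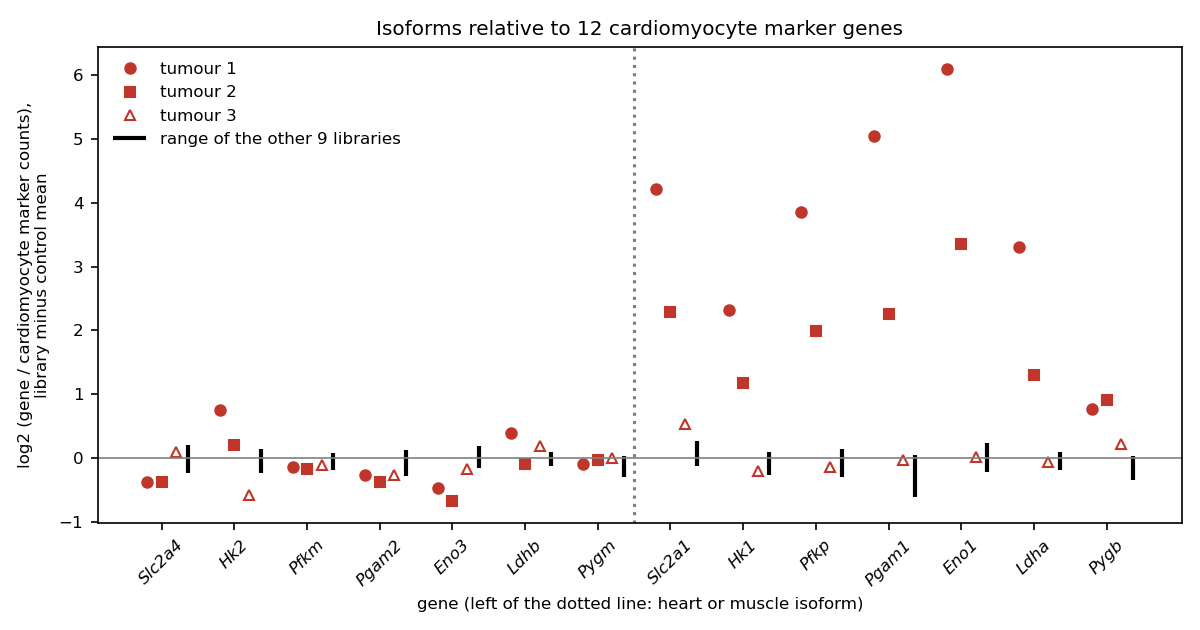
Symbols give the log2 ratio of each gene to the summed counts of 12 cardiomyocyte markers, minus the control mean, for tumour 1, 2 and 3; black bars span the other 9 libraries. The 7 muscle and heart forms plotted left of the dotted line lie between -0.68 and 0.76, and the 7 forms plotted to its right reach 6.10 in tumour 1.

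Tumour 3 had a melanocyte marker share of 0.00767% and a cardiomyocyte share of 11.8%, close to the other groups. Tyrp1 counts were nevertheless found in it and in no library of the other groups. None of its 7 melanocyte markers was at 0, against 1 to 3 in each of the 9 libraries of other groups. The member values of tumour 3 are given here by themselves. Against the 9 libraries of other groups it was above all of them for 7 members, namely Pfkfb1, Gyg, Pygb, Phka1, Ldhb, Gys1 and Slc2a1, and below all of them for Pfkfb2 and Hk2. Among all genes tested, 15.7% lay above and 12.3% below in the same way, so the 7 and 2 of 33 are read against those shares. These are single-library values with no replicate.

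Training without tumour cells was tested by comparing trained with control hearts, and no member was called. In that comparison 0 of 33 members and 0% of all genes passed the edgeR threshold; no member and 2.18% of all genes had an unadjusted p below 0.05, and none was called by DESeq2. Trained libraries lay below all control libraries for Hk2, Pgam1 and Slc16a3, as did 5.44% of all genes, and above them for no member, against 4.04% of all genes. The log2 fold changes of trained over control were -0.20 ± 0.23 SE (adjusted p = 1 by edgeR) for Hk2, -0.37 ± 0.47 SE (adjusted p = 1 by edgeR) for Pgam1 and -0.92 ± 1.04 SE (adjusted p = 1 by edgeR) for Slc16a3. The 12-library fit includes the wide spread of the tumour libraries; without tumour 1 and 2 the SE of Hk2 fell to 0.093 and the adjusted p to 0.655. The median log2 fold change was -0.081 over the members and 0.0091 over all genes.

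In tumour trained against trained hearts, which asks what tumour cells did in mice that ran, 0 of 33 members and 0% of all genes passed, no member and 1.17% of genes had an unadjusted p below 0.05, and none was called by DESeq2. The wide spread of the tumour libraries enters this fit too, so few small p-values do not show that members are unchanged. With only these 2 groups fitted, 0 members and 0% of all genes passed the adjusted threshold. Tumour trained libraries lay below all trained libraries for Aldoa, Tpi1, Gapdh, Gpi1, Pkm and Pfkfb4, and above them for no member; the shares among all genes were 8.05% below and 7.90% above. The smallest unadjusted p-values belonged to Pfkl (-0.23 ± 0.15 SE, adjusted p = 1 by edgeR), Pfkfb4 (-0.43 ± 0.30 SE, adjusted p = 1 by edgeR) and Gbe1 (0.32 ± 0.22 SE, adjusted p = 1 by edgeR). Without trained 2, the library with low Gbe1, the Gbe1 value was 0.067.

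Tumour trained against control hearts differ in both tumour cells and running. No member and 0% of genes passed in the 12-library fit, no member and 6.46% of genes had an unadjusted p below 0.05, and none was called by DESeq2. The spread of the tumour libraries enters the 12-library fit here as well. The groups nevertheless did not overlap for 19 members: 16 were lower in all 3 tumour trained libraries than in any control library, among them Gapdh, Pkm, Pfkm, Pgam1, Pygm and Slc2a4, against 17.4% of all genes, and Pfkfb1, Phkb and Ugp2 were higher, against 21.9%. Gapdh was at 6839, 6352 and 6576 CPM in tumour trained hearts and 7298, 7387 and 8489 CPM in control hearts. Pkm was at 1543, 1423 and 1523 CPM in tumour trained hearts, all below the 1848, 1789.8 and 1979.8 CPM of control hearts. The fold changes were small, with a median log2 fold change of -0.16 over the members and 0.00028 over all genes. With the tumour and trained libraries left out of the fit, 13 members passed, 1 higher and 12 lower, where 12.8% of all genes were higher and 7.58% lower. In that fit Pgam1 had a log2 fold change of -0.56 ± 0.076 SE (adjusted p = 0.00265 by edgeR), Gys1 -0.39 ± 0.064 (edgeR adjusted p = 0.00438) and Pfkfb1, the member that was higher, 0.69 ± 0.16 (edgeR adjusted p = 0.0149). In the 12-library fit Hk1, Pfkl and Pfkfb1 had -0.29 ± 0.16 SE (adjusted p = 0.768 by edgeR), -0.31 ± 0.15 SE (adjusted p = 0.766 by edgeR) and 0.69 ± 0.44 SE (adjusted p = 0.805 by edgeR). The melanocyte marker share was 0.00752 to 0.00796% in tumour trained and 0.00546 to 0.00647% in control hearts, higher without overlap. Trained hearts, which received no tumour cells, spanned 0.00458 to 0.00772%. Other cell type markers also did not overlap between tumour trained and control hearts. Endothelial markers took 0.102 to 0.105% in tumour trained and 0.119 to 0.122% in control hearts. The 6 smooth muscle and pericyte markers took 0.0899 to 0.0927% in tumour trained and 0.0660 to 0.0813% in control hearts. Their part in the member values was not tested.

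Whether training acted differently with and without tumour cells was tested as the interaction of the 2 factors. No member passed, against 0.0235% of all genes, while 8 of 33 members had an unadjusted p below 0.05, against 14.4% of genes, and DESeq2 called 1 member, against 2.15% of genes. The smallest p-values were those of Slc2a1 (-1.33 ± 0.38 SE, adjusted p = 0.286 by edgeR), Pfkfb2 (1.43 ± 0.42 SE, adjusted p = 0.286 by edgeR) and Eno1 (-2.88 ± 0.86 SE, adjusted p = 0.286 by edgeR). Without tumour 1 and 2 the interaction values were 0.79 ± 0.25 SE (adjusted p = 0.385 by edgeR) for Pfkfb2 and -0.18 ± 0.21 SE (adjusted p = 0.871 by edgeR) for Eno1. Without tumour 3, 18 of the 34 members then tested passed, where 30.1% of all genes did.

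The genes around the pathway were listed in 5 groups and counted in the same fits. In tumour against control hearts, 1 of 23 other glycolysis and lactate genes was higher, and the median log2 fold change of the list was 0.025, against 0.11 over all genes. The higher gene was Emb, embigin, a partner of lactate transporters, with 61.7, 30.6 and 1.57 CPM in tumour hearts and 0.479, 1.36 and 1.68 CPM in control hearts. Of 20 other glycogen genes only Ppp1r3c, a glycogen-targeting subunit of protein phosphatase 1, was lower (-1.60 ± 0.43 SE, adjusted p = 0.0495 by edgeR), and the list's median was -0.21. Ppp1r3c had 28.5, 81.0 and 149 CPM in tumour hearts, against 235, 324 and 223 CPM in control hearts. Trained hearts had 167, 146 and 181 CPM, so tumour 3 lay among them. Without tumour 1 and 2 the log2 fold change of Ppp1r3c was -0.80. Of 14 pentose phosphate and hexosamine genes, G6pdx, the entry enzyme of the pentose phosphate pathway, and Tkt, transketolase, were higher. Their log2 fold changes were 1.75 ± 0.45 SE (adjusted p = 0.046 by edgeR) and 1.86 ± 0.47 SE (adjusted p = 0.0451 by edgeR), and the list's median was 0.46. Without tumour 1 and 2 both were within 0.1 of 0, at 0.078 for G6pdx and -0.071 for Tkt.

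Of 28 genes of insulin signalling and GLUT4 traffic, Rab13 was higher and 2 were lower in tumour hearts: Irs2, an insulin receptor substrate (-3.07 ± 0.83 SE, adjusted p = 0.049 by edgeR), and Vamp2, a vesicle protein of GLUT4 traffic (-0.51 ± 0.14 SE, adjusted p = 0.0495 by edgeR). Irs2 had 5.70, 39.4 and 17.6 CPM in tumour trained, 5.26, 8.56 and 10.5 CPM in tumour, 7.42, 8.41 and 9.58 CPM in trained and 7.66, 84.6 and 111 CPM in control hearts. Control 1 lay among the tumour libraries and the trained hearts were as low, so the Irs2 call rests on control 2 and 3. Pik3r1, the regulatory subunit of PI 3-kinase, was called only without tumour 1 and 2, at 1.24 (edgeR adjusted p = 0.0217). Its levels were 81.4, 104 and 157 CPM in tumour hearts, against 70.9, 70.0 and 60.04 CPM in control hearts. Tumour trained hearts had 110, 117 and 111 CPM and trained hearts 96.9, 55.8 and 90.2 CPM. All tumour trained libraries thus also lay above the control ones, and that call of Pik3r1 rests on tumour 3 alone. Of 21 transcriptional regulators of glycolysis, 1 was higher, Myc (3.39 ± 0.70 SE, adjusted p = 0.039 by edgeR), at 98.5, 40.0 and 7.20 CPM in tumour hearts, against 3.45, 5.35 and 5.15 CPM in control hearts, so that tumour 1 and 2 carried most of the difference. In tumour trained against tumour hearts, Slc2a3, Eno2 and Emb were lower and Slc16a7 higher among the 23, no glycogen gene was called among the 20, Pgd, G6pdx and Tkt were lower among the 14, Sort1 and Rab13 were lower and Irs1 higher among the 28, and Myc was lower and Mef2a higher among the 21. Mef2a, a muscle transcription factor that acts on the GLUT4 gene, had 242, 264 and 251 CPM in tumour trained hearts and 116, 134 and 137 CPM in tumour hearts (0.97 ± 0.22 SE, adjusted p = 0.0357 by edgeR). It had 238, 133 and 236 CPM in trained hearts and 146, 198 and 201 CPM in control hearts. Trained 2 thus lay within the range of the tumour libraries, and all tumour trained libraries lay above the control ones. Without tumour 1 and 2 the log2 fold change was 0.87. No gene of the 5 lists was called in the other 4 comparisons or, without tumour 1 and 2, in tumour trained against tumour hearts.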

How the data were processed

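RNA from 12 mouse heart libraries was sequenced. The values are estimated counts per gene as deposited; between 7.09% and 8.92% of a library's values were not whole numbers, and they were rounded to whole counts here. HISAT2 2.2.1, featureCounts and the builds GRCm39 and mm10 are named in the submitters' processing notes, which do not give their roles; whether counting used strand is not given in the sources used here. Groups were taken from the labels. The members and the other gene lists were chosen with earlier results of these data known.

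The main test was edgeR 4.0.16 (R 4.3.3): TMM scaling, filterByExpr, 1 mean per group over all 12 libraries (8 residual degrees of freedom), the quasi-likelihood F test, and Benjamini-Hochberg adjustment over 12778 genes, with calls below 0.05. The SE is the log2 fold change divided by the square root of F. A second fit left out tumour 1 and 2 (10 libraries, 6 residual degrees of freedom, 12995 genes). Alternatives were DESeq2 1.42.0, its size factors, library size alone, scaling to 12 cardiomyocyte genes, 2 other filters on low counts, robust dispersion, a replicate block, only the groups compared, and each library left out. The code was tested on simulated data drawn with the spread of the libraries outside the tumour group. That test does not cover the wide spread between the tumour libraries. No 2 libraries agreed within sampling noise, so none were merged. Fold changes are given for called members, made up to 10 in each comparison with tumour hearts and to 3 in the others by unadjusted p; those genes of the other lists that were called are named, at most 4 per list and comparison. The result of 1 gene of these lists is not reported here.

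CPM per kb divides CPM by the merged exon length in GENCODE M21. Counts of Eno1 and Gapdh may share reads with near-identical copies; Eno1b held 4 counts and Gapdh-ps15 181 counts over all libraries. Promoter sequences and coordinates are RefSeq's on GRCm38.p6, 1 window per gene, nearest to the gene start in GENCODE M21, which lay up to 13205 bases away.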

Additional observations from a re-analysis of the deposited data

How the results depend on the processing

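The number of members called in tumour against control hearts, 6 with all libraries (6.79% of all genes), was 10 with DESeq2 (17.8%), 26 after scaling to cardiomyocyte genes (71.3%), 0 with a stricter filter on low counts (42 genes called in all), 0 with only the groups compared (0.0240%) and 1 without tumour 1 and 2 (1.40%); leaving out 1 library gave 0 to 21, the highest without tumour 3 (53.0% of all genes). In tumour trained against tumour hearts, 5 were called with all libraries (9.05% of all genes), 10 with DESeq2 (18.6%), 8 with library size alone (13.2%), 20 after scaling to cardiomyocyte genes (59.7%), 0 with only the groups compared (0.0159%) and 0 without tumour 1 and 2 (0.716%); leaving out 1 library gave 0 to 22, the highest without tumour 3 (49.8%). The fit without tumour 3 tested 34 members, and the 21 and the 22 both include Aldoc. In tumour trained against control hearts 13 were called with only the groups compared (20.4% of all genes). For the interaction 1 was called with DESeq2 (2.15%), and leaving out 1 library gave 0 to 18, the highest without tumour 3 (30.1%). A block for the replicate number left 0 members called in tumour against control, where 16 genes were called in all. In tumour trained against tumour hearts it left 0, where 18 genes were called in all. Over 18 same-numbered pairs the correlation of deviations ran from -0.268 to 0.241, with 3 above 0.1. The labels state no pairing by number. This check cannot exclude one, because the tumour libraries differ widely among themselves. In tumour over control the sign turned for Hk2 after scaling to cardiomyocyte genes (0.224), for Pfkfb1 when 1 library was left out (-0.522 to 0.747, below 0 without tumour 3), and without tumour 1 and 2 for Eno1 (-0.0118), Slc16a3 (-0.778), Pgam1 (-0.068) and Pfkp (-0.179). In tumour trained over tumour it turned for Hk2 after scaling to cardiomyocyte genes (-0.303) and without tumour 1 and 2 for Slc16a3 (0.16) and Pfkp (0.00878). The cause was not tested. No other named member changed sign in any alternative. In the 3 comparisons without tumour hearts, 0 members were called under every other alternative.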
